A study of Mus musculus with 24 samples.

Results

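The cells described here are Rorb-expressing glutamatergic neurons of the mouse primary motor cortex, the class usually placed in layer 4 and upper layer 5. They were chosen by counts of marker UMIs (unique molecular identifiers, one per captured transcript) in single cells. A cell entered the group with at least 1 UMI of Slc17a7, none of Gad1 or Gad2, at least 2 UMIs of Rorb, and none of Fezf2, Foxp2, Syt6, Tshz2 or Otof. The chosen cells numbered 2458. They made up 13.4% of the 18395 glutamatergic cells, 4.88% of the 50361 motor cortex cells, and stood among 103715 cells of the whole series that passed the cell filter (1000 UMIs, 500 genes and at most 20% mitochondrial UMIs).

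Motor cortex was dissected from Fos-CreER::Ai9 mice, in which a recombinase expressed from the Fos gene and activated by 4-hydroxytamoxifen (4-OHT) switches on the tdTomato reporter of the Ai9 allele in active cells. Training consisted of forelimb reaching for 2 days (early) or 8 days (late), or was left out (control), and all groups, controls included, received 4-OHT and were collected 3 days after labelling. Each stage had 2 pools of 2 mice. Each pool gave 1 library per hemisphere: contralateral and ipsilateral for the trained pools, left and right for the controls. That made 12 libraries in 6 pools, with no age in the labels used here. The design addresses how motor learning alters gene expression in cortical neurons. The p-values between stages rest on the spread between pools, estimated over all pools of a fit, and each stage had only 2. Those of comparisons made within pools rest on the spread of the within-pool differences.

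RORβ, the product of Rorb, is a nuclear receptor that takes part in forming layer 4 and marks the neurons that receive thalamic input in sensory cortex. Motor cortex was long called agranular because its layer 4 is thin, but it holds Rorb-positive neurons at the corresponding depth, with local axons and thalamic input. These cells differ from the Fezf2-positive neurons that project below the cortex and from the Foxp2- and Syt6-positive corticothalamic neurons of layer 6, which the rule left out. Rorb lies on the minus strand of chromosome 19 (18930605 to 19111196, GRCm38) and Slc17a7, the vesicular glutamate transporter VGLUT1, on chromosome 7 (45163949 to 45176142).

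The libraries held 5260446 to 30470621 UMIs and 469 to 7087 passing cells. The chosen cells had a median of 6471.5 UMIs, with library medians of 3729.5 to 13385. They were shallower than the other glutamatergic cells in 12 of 12 libraries, whose medians were 4785 to 15211. Summed per pool, the chosen cells held 1829626 to 5351385 UMIs. Pairs of motor cortex libraries shared 0 to 96 cell barcodes (median 2.5 over 66 pairs). The version of the library kit was called from shared barcodes: control pool 1 and late pool 1 fell in class A, the other 4 pools in class B. Control pool 1 and late pool 1 also shared a sequencing batch, control pool 2 and early pool 1 shared another, and early pool 2 and late pool 2 each had their own. The left library of control pool 1 stood apart, with 469 cells, 42 chosen cells and the highest median depth. Doublet scores marked 113 of the chosen cells (4.60%), which were kept.

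Rorb counts in the chosen cells ran from 2 to 23 UMIs. Cells with exactly 2 UMIs numbered 810 (33.0% of the group), and a further 1287 cells that met every other condition had 1 UMI and stayed out. Summed per pool, Rorb stood at 567 ± 88.8 CPM (UMI counts of a gene scaled to the same library total in every pool; SD, n = 6 pools) in the chosen cells and 29.5 ± 3.81 in the other glutamatergic cells, as the rule fixes. Just inside the threshold the level was 329 CPM and just outside it 150 CPM. Of 11028 cells gated as microglia, which should lack Rorb, 24 (0.218%) had 2 or more Rorb UMIs, at a median of 1867 UMIs a cell. The rule also set aside 529 glutamatergic cells with at least 2 Rorb UMIs and a UMI of an excluded gene, most often Fezf2 (79.4% of them) and Tshz2 (29.9%).

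Markers outside the rule were checked against the label. Among cells of the group, 56.4% had a UMI of Cux2, 48.7% of Rspo1, 26.7% of Whrn, 13.9% of Deptor, 9.68% of Etv1 and 7.36% of Scnn1a. The same shares in microglia-gated cells were 0.961%, 0.462%, 12.3%, 1.87%, 5.61% and 0.0453%. Deptor and Etv1, layer 5 members of the marker list, stood lower in the group than in the other glutamatergic cells. Of the layer 2/3 markers outside the rule, Cux2 was higher in the group in 6 of 6 pools, Calb1 and Lamp5 in 5 and Stard8 in 1. Of the markers of layer 5 neurons that project below the cortex, Pou3f1 was higher in 6 of 6 (median 88.6 against 46.6 CPM). Bcl11b and Crym of that list were lower in 6 of 6. Cux2 encodes a homeobox factor of upper-layer neurons, Rspo1 a secreted enhancer of Wnt signalling, Whrn the scaffold protein whirlin and Scnn1a a sodium channel subunit whose gene drives Cre lines for layer 4. Transcripts of other cells were present: the microglial list summed to 57.9 to 516 CPM, the astrocyte list to 46.8 to 179 CPM, the oligodendrocyte list to 68.1 to 417 CPM and the 4 hemoglobin genes to 32.0 to 2739 CPM. Leaving out cells in which such genes exceeded 1% of UMIs removed 37 cells and kept 2421. That alternative was chosen after seeing the data.

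The transcriptome of the Rorb cells was set beside that of the 15937 other glutamatergic cells of the same pools. It is a description without a test, because the rule drew on this contrast. The other cells include the 1287 with 1 Rorb UMI and the 529 with at least 2 and an excluded gene. Ratios are log2 of CPM plus 1, given as the median over the 6 pools. Rspo1 stood furthest above the others. In Rorb cells it ranged from 102 to 144 CPM over the pools (median 109.9), in the other cells from 5.54 to 22.3 CPM (median 10.1), and the log2 ratio was 3.27 (2.64 to 4.09). The ranges did not overlap. Kcnab3, an auxiliary subunit of potassium channels, followed with 163 to 240.0 CPM (median 219.9) against 20.3 to 30.0 CPM (median 24.9), a log2 ratio of 2.97. Rspo1 lies on chromosome 4 (124986430 to 125009099, plus strand) and Kcnab3 on chromosome 11 (69326258 to 69333042, plus strand).

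Further genes among the 15 highest were Adam33, a membrane metalloprotease (2.57), Cbln4, a synaptic organiser of the cerebellin family (2.56), Fam19a2, a secreted chemokine-like protein (2.41), Kcnh5, a potassium channel of the ether-à-go-go family (2.21), and Grm2, a presynaptic metabotropic glutamate receptor (2.19). Ddit4l, Tshz1, Tmem145, Tmem215, Tcap, Coch, Brinp3 and Dcdc2a lay between 2.08 and 1.92, and Scnn1a, below the level required of that list, stood at 2.64. The 10 lowest were Nxph3 (log2 ratio -5.46), Cplx3 (-5.12), Bcl11b (-5.07), Ctgf (-4.33), Sdk2 (-4.15), Trp53i11 (-4.06), Sema5a (-3.91), Igsf21 (-3.69), Spon1 (-3.61) and Rprm (-3.58). Bcl11b encodes CTIP2, a factor of subcerebral projection neurons, and ranged from 1.50 to 4.92 CPM in Rorb cells (median 2.22) against 91.5 to 157 CPM in the others (median 138). Cplx3 and Ctgf are markers of the deepest cortical layer, and Rprm and Nxph3 of deep-layer neurons. A level of at least 50 CPM in the higher of the classes was reached by 4476 protein-coding genes. Of these, 108 were at least 2-fold higher in the median and higher in all 6 pools. Another 110 were at least 2-fold lower and lower in all 6. Genes over that level in only 1 class, such as Bcl11b, had to differ, and they were not counted apart.

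**Figure D1:**
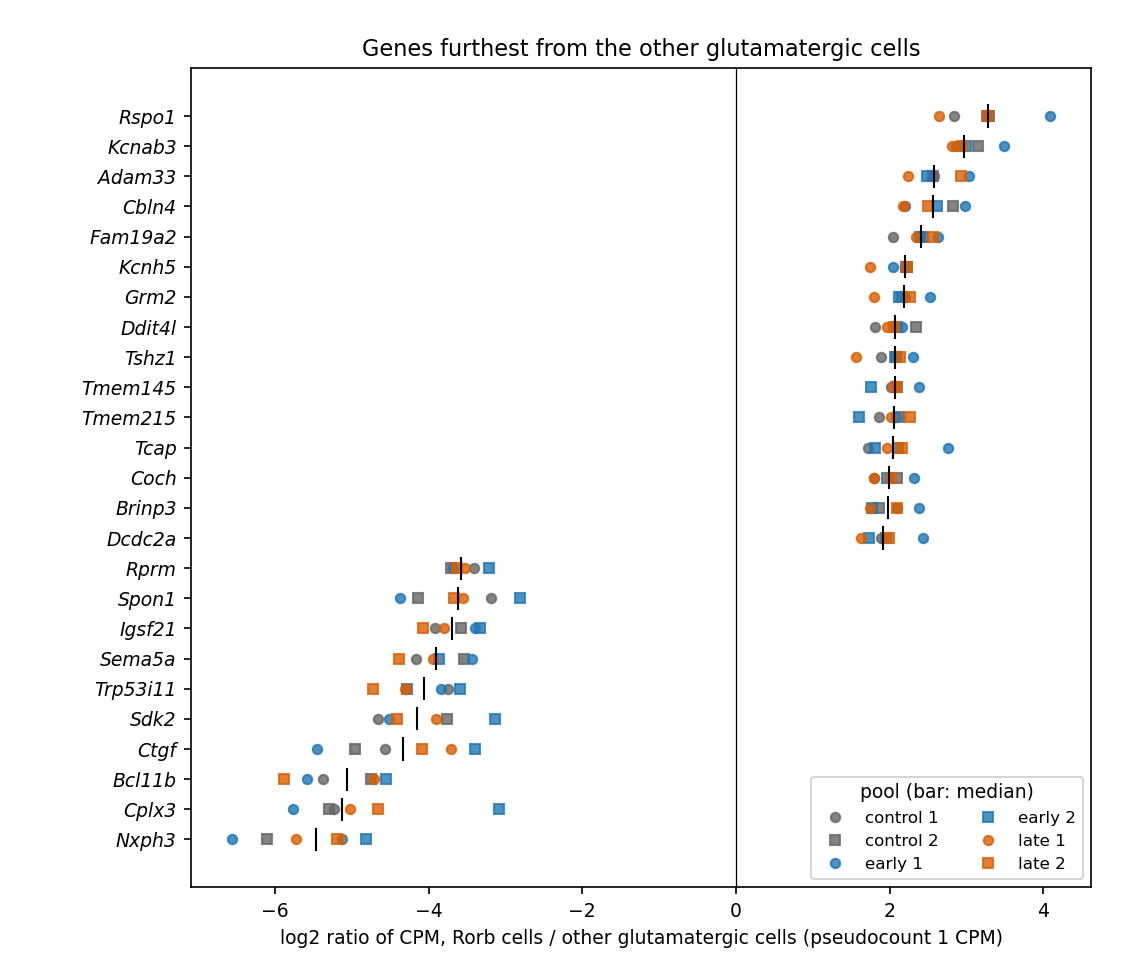
Log2 ratio of CPM (pseudocount 1 CPM) between Rorb cells and other glutamatergic cells for the 15 genes furthest above and the 10 furthest below, with 1 point for each of the 6 pools and a bar at the median. Every point of the upper genes lies right of 0 and every point of the lower genes left of 0, from 3.27 for Rspo1 to -5.46 for Nxph3 in the median.

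Genes of layer identity stood on both sides. Of 19 layer 4 and intratelencephalic layer 5 genes over 20 CPM in Rorb cells or in the others (the level used for every list here), 14 were higher in all 6 pools and 5 lower in all 6, with a median log2 ratio of 0.94. Over all 7740 genes of that level the shares were 28.0% higher and 24.6% lower, with a median of 0.02. A gene over that level in only 1 class had to differ. Of the 14 layer genes over it in both classes, 10 were higher and 4 lower in all pools. Over all 6966 genes over it in both classes, 1871 were higher and 1614 lower. Whrn (1.75) and Plxnd1 (1.48), both higher, passed the level only through the Rorb cells. Other higher genes included Rora, the paralog of Rorb (1.73), Cux1 (1.71), Cux2 (1.52), Unc5d, a netrin receptor of upper layers (1.50), and Pou3f2 (1.31). Rora ranged from 254 to 314 CPM in Rorb cells (median 282) and from 71.4 to 92.1 CPM in the others (median 84.8). The 5 lower ones were Etv1, a layer 5 factor (-1.75), Tox (-1.25), Sulf2 (-1.20), Id2 (-0.49) and Deptor, an mTOR inhibitor and layer 5 marker (-0.40). Tox passed the level only through the other cells.

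The direction depended on the class compared. Against 357 cells gated by Otof, a gene of upper-layer neurons, Rspo1 (6.79), Cnih3 (4.07) and Whrn (3.40) were higher in all 6 pools. Cux2 was about level (-0.10, higher in 3 of 6 pools), and Calb1 (-1.85) and Lamp5 (-1.58) were lower in all 6. Against 335 cells gated by Fezf2, Cux2 (5.51), Ddit4l (5.93) and Calb1 (5.15) were higher, and Etv1 (-2.31), Tox (-2.28) and Sulf2 (-2.32) lower, in all 6. Against 3211 cells gated by Foxp2 or Syt6, Etv1 was about level (-0.06, higher in 3 of 6 pools), Cux2 was higher (5.98) and Rprm lower (-5.06). Rspo1 in the Otof cells and Ddit4l in the Fezf2 cells were nearly absent, so the pseudocount of 1 CPM largely sets the size of these ratios. Each gate requires another gene of its own, so these values are descriptions as well.

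Cells at the edge of the rule shared part of this profile. With 1 Rorb UMI, Rspo1 stood at 66.9 CPM, with 2 UMIs at 95.4 CPM and in all chosen cells at 115 CPM. Whrn followed the same order at 21.6, 44.1 and 52.9 CPM. Gria3 (212, 134 and 88.4 CPM), Lamp5 (386, 248 and 224.5 CPM) and Penk (25.7, 5.03 and 2.68 CPM) took the opposite order. The number of Rorb UMIs also depends on the depth of a cell.

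The group was not uniform in its layer genes. Cells with a Cux2 UMI (1386, median depth 7073.5 UMIs) and without (1072, median 5721.5 UMIs) were compared by pool. Sulf2 (log2 ratio -1.60), Deptor (-1.38), Grik3 (-1.36) and Etv1 (-1.31) were lower in Cux2-positive cells in 6 of 6 pools, and Rspo1 was higher in 6 of 6 (0.59). Tox was lower in 5 of 6 (-1.18). Layer markers also met in the same cells unevenly. Deptor and Etv1 were found together in 72 cells, against 34.4 from the product of their shares within libraries, and Scnn1a and Whrn in 94 against 50.9. Scnn1a and Etv1 met in 7 cells against 18.5, Rspo1 and Etv1 in 72 against 119, and Rspo1 and Deptor in 129 against 173. Whrn met Deptor in 101 cells against 93.8 and Etv1 in 68 against 64.5, close to the product. Depth differed between cells of a library, and its part in these counts was not tested.

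Receptors of fast glutamate transmission stood on both sides, with more of them lower than higher in Rorb cells. Of 14 AMPA and kainate receptor subunits and auxiliary proteins, 8 were lower in all pools and 3 higher in all pools, with a median log2 ratio of -0.42. Over all 7740 genes of that level, 24.6% were lower and 28% higher. Grik4 and Grik3 passed the level only through the other cells. Of the 12 genes over it in both classes 6 were lower and 3 higher, with a median of -0.19. Over all 6966 such genes, 1614 were lower and 1871 higher. Gria3, an AMPA subunit, ranged from 53.3 to 117 CPM (median 91.7) in Rorb cells against 196 to 342 CPM (median 323), a log2 ratio of -1.75 without overlap. The kainate subunits Grik4 (-2.71) and Grik3 (-2.64) and the AMPA subunit Gria1 (-0.87) lay on the same side. The 3 higher genes were the AMPA auxiliary subunit Cnih3 (1.62), the subunit Gria4 (1.02) and Cacng2, which encodes stargazin (0.26). Among the NMDA subunits, Grin1 (0.13) and Grin2a (0.22) were higher in 6 of 6 pools, and Grin2b (-0.19) was higher in 1 of 6.

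Metabotropic receptors stood on both sides. The presynaptic receptors Grm2 (2.19) and Grm7 (1.03) and also Grm3 (0.45) were higher in all pools, Grm5 was level (0.06) and Grm8 (-2.08) was lower in all pools. Grm2 passed the level only through the Rorb cells and Grm8 only through the other cells. Of the 3 genes over it in both classes, 2 were higher in all pools and 0 lower. Grm2 ranged from 52.2 to 80.3 CPM in Rorb cells (median 73.1) and from 10.1 to 20.1 CPM in the others (median 14.6). Of 11 GABA-A subunits, 6 were higher in all pools, among them Gabrb2 (0.66), Gabra2 (0.61), Gabrd (0.52) and Gabra4 (0.36). Gabrg3 (-2.48), Gabra3 (-0.83) and Gabra5 (-0.74) were lower in all pools. Gabrg3 passed the level only through the other cells, and of the 10 subunits over it in both classes 6 were higher and 2 lower. Over all genes of that level, 28% were higher and 24.6% lower. Over the 6966 genes over it in both classes, 1871 were higher and 1614 lower.

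Among 8 voltage-gated sodium channel genes, 4 were higher in all pools, with Scn1a (1.05) furthest, and Scn3b was lower (-1.34). Scn1a, which encodes Nav1.1, ranged from 137 to 282 CPM (median 277) in Rorb cells and from 70.2 to 136 CPM (median 126) in the others, so the ranges did not overlap but lay close. Of 27 potassium channel genes, 16 were higher in all pools and 9 lower (28.0% and 24.6% over all genes of that level). Kcnh5 passed the level only through the Rorb cells and Kcnn2 (-0.76) only through the other cells. Of the 24 genes over it in both classes, 15 were higher and 7 lower. The higher of these were led by Kcnip2, a partner of A-type channels (1.16), Kcna2 (0.98) and Kcnq3 (0.86). The lower were led by Kcna6 (-0.99) and Kcnt1 (-0.74).

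**Figure D2:**
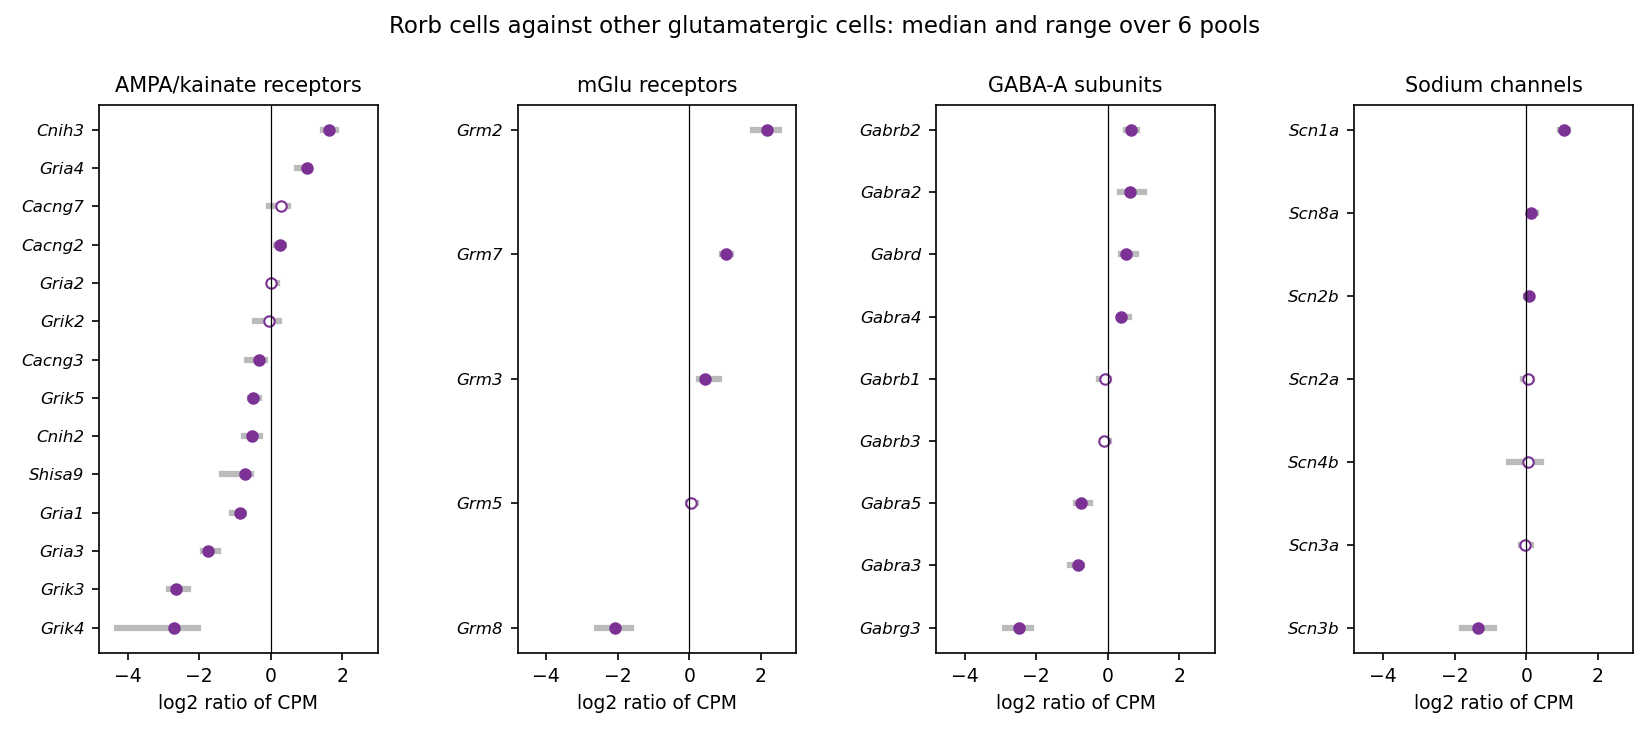
Median log2 ratio of CPM (points) and range over the 6 pools (grey bars) between Rorb cells and other glutamatergic cells for the reported members of 4 receptor and channel lists, filled where all pools lay on 1 side. Cnih3, Grm2, Gabrb2 and Scn1a lie at the upper ends (1.62, 2.19, 0.66 and 1.05) and Grik4, Grm8, Gabrg3 and Scn3b at the lower ends (-2.71, -2.08, -2.48 and -1.34). Grm2 was over 20 CPM only in Rorb cells, and Grik4, Grm8 and Gabrg3 only in the other cells.

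Release, adhesion and guidance genes showed members on both sides. Slc17a6, which encodes VGLUT2, was higher in Rorb cells, with 38.2 to 64.7 CPM (median 54.4) against 11.9 to 18.7 CPM (median 16.0) and a log2 ratio of 1.74. Slc17a7, which the rule requires of every cell in both classes, was lower in all pools (-0.33). Of 25 vesicle release genes, 9 were higher and 9 lower in all pools, among them the syntaxin Stx1a (0.77) and the complexin Cplx2 (-1.81). Slc17a6, a member of this list, passed the level only through the Rorb cells. Of the 24 genes over it in both classes, 8 were higher and 9 lower (1871 and 1614 of all 6966 such genes). Adhesion genes (28) gave 13 higher and 10 lower, with Pcdh20 (2.00) and Cdh12 (1.43) at one end and Cdh13 (-2.83) at the other. Guidance genes (27) gave 14 higher and 9 lower, with Unc5c (1.38) and Ntng1 (1.07) above and the semaphorin receptor Nrp1 (-2.85) and Sema3e (-2.82) below. Over the level in both classes were 22 adhesion genes, 10 higher and 7 lower, and 17 guidance genes, 11 higher and 3 lower. Pcdh20, Cdh13, Nrp1 and Sema3e were among those over it in 1 class only. Of 17 calmodulin kinase and calcineurin genes, 8 were higher, led by Camk4 (1.03), and 5 lower, led by Camk2d (-2.21). Camk2d passed the level only through the other cells, and of the 16 genes over it in both classes 8 were higher and 4 lower.

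Genes of ROR and REV-ERB receptors and of the clock, which include targets of ROR receptors, were nearly all higher. Of 19 over 20 CPM, 18 were higher in all 6 pools and none lower in all 6, with a median log2 ratio of 0.64 against 0.02 over all genes. Over all genes of that level, 28% were higher and 24.6% lower in all 6. Of the 18 over 20 CPM in both classes, 17 were higher in all 6 (1871 of all 6966 such genes). The exception was Csnk1d, higher in 4 of 6 (0.14). Rora (1.73), counted among the layer genes as well, stood highest. Nr1d1, which encodes REV-ERBα, ranged from 96.0 to 135 CPM in Rorb cells (median 114) and from 36.6 to 52.5 CPM in the others (median 44.2), without overlap and with a log2 ratio of 1.36. Bhlhe40 (1.31), Arntl, the gene of BMAL1 (1.03), and Hlf (0.89) followed.

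Immediate early genes, transcribed within minutes of neuronal activity, did not share a side. Of 18, 8 were higher and 3 lower in all pools (median 0.04; 28% and 24.6% over all genes of that level). Of the 17 over 20 CPM in both classes, 8 were higher and 2 lower (1871 and 1614 of all 6966 such genes). Arc, which acts in the removal of AMPA receptors, ranged from 172 to 379 CPM in Rorb cells (median 251) and from 99.5 to 182 CPM in the others (median 138), with a log2 ratio of 0.89. Egr1 (0.54), Fos (0.49) and Npas4 (0.28) were higher in all pools. Nr4a3 (-0.97) and Nr4a2 (-0.79) were lower in all pools. Among activity-induced effectors, Rgs4, a regulator of G-protein signalling, stood at 1151 ± 111 against 450.5 ± 63.3 CPM (SD, n = 6 pools; 1.36), and Penk, the enkephalin precursor, at 2.68 ± 0.953 against 35.6 ± 8.77 CPM (-3.44).

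The share of Rorb cells among glutamatergic cells was compared between stages. By pool it was 12.9% and 16.5% in the controls, 14.4% and 10.8% in the early pools and 14.1% and 11.6% in the late pools. The stages overlapped, with means of 14.7 ± 2.57% (SD, n = 2), 12.6 ± 2.58% and 12.8 ± 1.78%. Exact two-sided permutation tests gave p = 0.667 for early against control, 0.667 for late against control and 1 for late against early, where 2 against 2 pools cannot go below 0.333. Thinned to 2000 UMIs a cell, the shares were 5.10% and 6.49%, 5.78% and 5.31%, and 4.08% and 4.53%, so the late pools were the lowest, and the difference of late from early turned from 0.20 to -1.24 percentage points. Contralateral libraries held 13.5 ± 0.795% (SD, n = 4) and ipsilateral ones 12.1 ± 3.01%, a difference of 1.42 points (exact sign-flip permutation p = 0.375, where the smallest is 0.125).

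**Figure D3:**
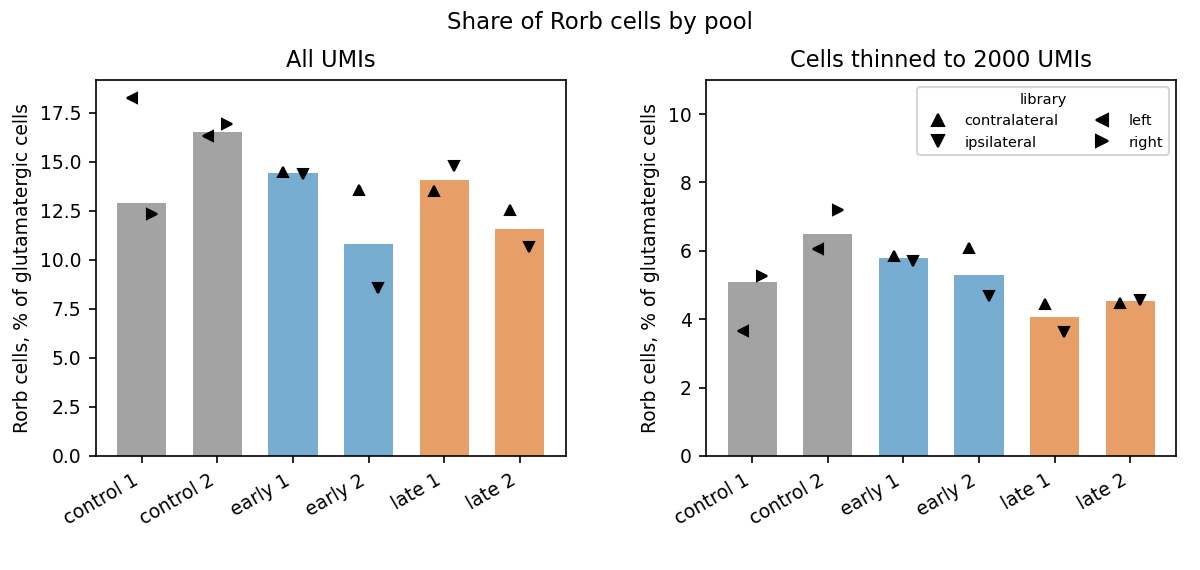
Rorb cells as a percentage of glutamatergic cells in each pool (bars) and library (triangles), from all UMIs (left) and after thinning each cell to 2000 UMIs (right). The bars run from 10.8 to 16.5% at full depth and from 4.08 to 6.49% after thinning, with stages overlapping on the left.

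The genes called between early and control pools were hemoglobin transcripts. In edgeR's quasi-likelihood test with kit class as a covariate, 4 of 12382 genes passed an adjusted p of 0.05 (0.0323%), all lower: Hbb-bs, Hba-a1, Hba-a2 and Hbb-bt, which encode the hemoglobin chains of red blood cells. Hbb-bs stood at 1332 and 930 normalised CPM in the controls, 18.6 and 17.7 in the early pools and 1039 and 528 in the late pools, so the early pools lay below all others. The log2 fold change was -5.56 (SE 0.210, edgeR adjusted p = 1.48e-07), and within the batch that held both stages it was -5.57. Single cells carried much of it: 1 cell gave 2370 of the 2557 Hbb-bs UMIs in control pool 1 (92.7%), 1 gave 2447 of 3515 in late pool 1 (69.6%) and 1 gave 969 of 1263 in late pool 2 (76.7%). In control pool 2, which held the most (5068 UMIs in 101 cells), the leading cell gave 40.1%, and in the early pools 3 of 59 and 2 of 33 UMIs. With the non-neuronal cells left out, edgeR called 0 genes. DESeq2 called 4, and 244 genes (1.97%) had an unadjusted p under 0.05.

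Activity genes were not called between early and control with all pools in the fit. The CPM given for the stage, hemisphere and reporter comparisons are edgeR's normalised values. They therefore differ from the CPM of the profile above. Fos stood at 171 and 239 CPM in the controls, 243 and 245 in the early pools and 276 and 174 in the late pools. The early values were above both controls, by little in the case of control pool 2, and the log2 difference was 0.28 (SE 0.237, edgeR adjusted p = 1), with 0.03 within the shared batch. Arc stood at 234 and 245, 278 and 249, and 400 and 172 CPM, Egr1 at 649 and 1055, 967 and 1005, and 947 and 866 CPM, and Npas4 at 188 and 272, 218 and 268, and 202 and 295 CPM. The late pools lay on both sides of the controls for Arc, and the stages overlapped for Egr1 and Npas4. Control pool 2 weighed on these values. Without it, control pool 1, of the other kit class than both early pools, was the only control left, and edgeR called Arc (1.40 in place of 0.39, adjusted p = 0.0235) and Nr4a1 (1.33 in place of 0.22, adjusted p = 0.0308), with Fos at 1.18 (edgeR adjusted p = 0.0651). Without control pool 1, the Fos difference was 0.03, that of Arc 0.11 and that of Nr4a1 -0.07, and none was called. Of 20 immediate early genes tested, 0 were called, 18 had positive and 2 negative log2 differences (median 0.28, against -0.00 over all genes), and 6 had an unadjusted p under 0.05.

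Among the uncalled genes with the smallest p, Junb, an AP-1 subunit, stood at 292 and 306 CPM in the controls and 409 and 472 in the early pools (log2 difference 0.63, SE 0.176, edgeR adjusted p = 1). Ier2 stood at 92.2 and 78.7 against 111 and 140 CPM (0.78), Gadd45b at 48.5 and 48.8 against 66.4 and 81.7 CPM (0.73), and Klf2 at 27.6 and 22.6 against 42.1 and 30.6 CPM (0.75). Each of these 4 had an edgeR adjusted p of 1, and the uncalled genes named by p were taken only from those whose groups did not overlap. The mitochondrial gene mt-Nd3 (0.98) and Lars2 (1.50), a mitochondrial tRNA synthetase gene whose counts can share reads with ribosomal RNA, were also positive. Both were called without control pool 1, late pool 1 or late pool 2, and Lars2 turned to -0.54 without control pool 2. Riok3 (-0.62) and Cog6 (-0.71) were negative. Heat shock genes, which respond to dissociation, were mostly positive too: 13 of 16 (median 0.19), and 6 of the 16 had an unadjusted p under 0.05. Their part in the result was not tested.

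No gene was called between late and control pools (0 of 12382, 0.0%; 436 genes, or 3.52%, at an unadjusted p under 0.05; DESeq2 called 0). Hspa1a, an inducible heat shock gene, stood at 26.6 and 36.5 CPM in the controls and 71.8 and 67.7 in the late pools (log2 difference 1.13, SE 0.205, edgeR adjusted p = 0.694; 1.40 within the shared batch). S100b, a calcium-binding protein, stood at 22.4 and 17.8 against 47.0 and 35.1 CPM (1.02, SE 0.201, edgeR adjusted p = 0.970; 1.04 within the batch). Of the other uncalled genes with the smallest p, Rpl19-ps11 (1.26), Gm5805 (1.75) and Rgs3 (0.67) were positive and Phc2 (-0.74), Cplx2 (-0.77) and Psd (-0.59) negative. Lars2 was 2.25 over all pools but 0.40 within the batch. Without late pool 1 or control pool 1, which left 1 pool in that stage, Rpl19-ps11 stood at 1.87, Gm5805 at 2.86 and Lars2 at 2.78. In cells with at least 3 Rorb UMIs edgeR called Hspa1a (1.41, adjusted p = 0.0270), Cplx2 (-1.13, adjusted p = 0.0411) and Lars2. Further genes were called in these fits, and their counts are given in the section on processing.

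In the lists, 15 of 16 heat shock genes were positive in late against control pools (median 0.33), and so were 19 of 20 immediate early genes (median 0.28), against 5983 positive and 6399 negative of all 12382 genes (median -0.01). Within the shared batch, Fos differed by 0.69, Arc by 0.77, Egr1 by 0.54 and Npas4 by 0.10, against 0.11, 0.13, 0.13 and 0.11 over all pools. Without late pool 1, Fos stood at -0.46, Arc at -0.51 and Egr1 at -0.29, so each turned negative. Layer identity genes showed 13 positive and 7 negative with a median of 0.07. Cux2 stood at 215 and 146 CPM in the controls and 130 and 127 in the late pools (-0.46, SE 0.169, edgeR adjusted p = 0.997). Of 26 vesicle release genes 19 were negative (median -0.10), and of 28 potassium channel genes 20 (median -0.08), with 0 called in either list. Both trained groups were set against the same control pools.

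**Figure D4:**
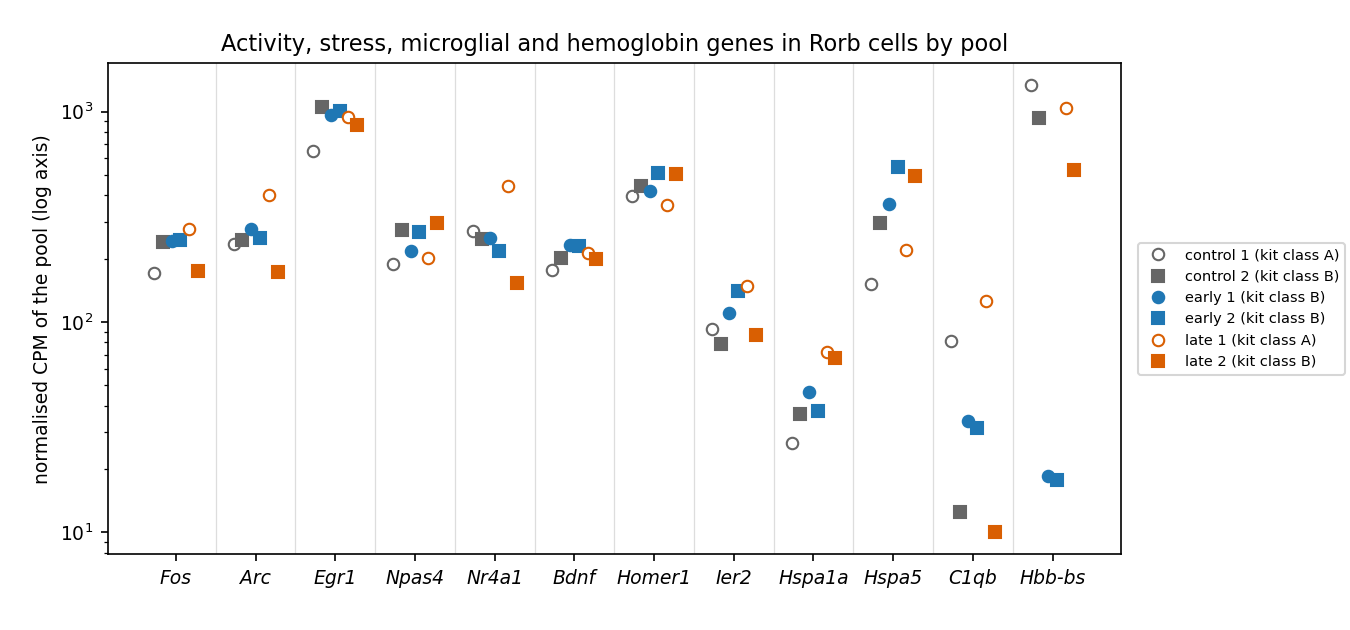
Normalised CPM (log axis) of activity, stress, microglial and hemoglobin genes in the Rorb cells of each pool, coloured by stage, with open symbols for kit class A. Hbb-bs falls to 18.6 and 17.7 in the early pools and stays at 528 or above in the other 4, whereas Egr1 and Npas4 overlap between stages.

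Late against early gave the same 4 hemoglobin genes in the opposite direction (4 of 12382, 0.0323%; 230 genes, or 1.86%, unadjusted; Hbb-bs 4.97), 0 with the non-neuronal cells left out and 0 in cells with at least 3 Rorb UMIs. Among uncalled genes, S100b (1.05), Hspa1a (0.80), Kcnab1 (0.73) and Col26a1 (0.85) were positive and mt-Nd3 (-0.67), Coa5 (-0.82), Synpr (-1.22) and Gm47283 (-0.55) negative. Each of these 8 had an edgeR adjusted p of 1, and Synpr was called without control pool 2 (-1.65, edgeR adjusted p = 0.0491). Of the 20 immediate early genes, 8 were positive and 12 negative (median -0.15).

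The hemispheres of each trained pool came from the same mice and were tested as pairs (4 pools). Of 10374 genes, 12 were called (0.116%), all lower on the contralateral side, and 505 (4.87%) had an unadjusted p under 0.05. Npas4 and Nr4a2 encode transcription factors of the immediate early class. Gpr37l1, Ndrg2 and Mt1 are genes abundant in astrocytes, Ccl3 is a chemokine of microglia, and Hbb-bs, Hba-a1 and Hba-a2 are hemoglobins. Synpr, a vesicle protein, and Gnb4, a G-protein subunit, were called as well.

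Npas4, which lies on chromosome 19 (4984355 to 4990316, minus strand), stood at 168 CPM contralaterally and 274 ipsilaterally in early pool 1 and at 251 and 309 in early pool 2. It stood at 191 and 219 CPM in late pool 1 and at 284 and 317 in late pool 2. The contralateral value was the lower in 4 of 4 pools, while the ranges of both sides overlapped. The log2 difference was -0.34 (SE 0.0779, edgeR adjusted p = 0.0499), and it kept its sign in 11 of 11 alternatives but passed the threshold in 4. No single cell gave more than 5.19% of its UMIs in a trained library. Without early pool 1 the difference was -0.21 (edgeR adjusted p = 0.790).

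Nr4a2, on chromosome 2 (57106830 to 57124003, minus strand), stood at 33.6 and 62.0 CPM, contralateral and ipsilateral, in early pool 1 and at 31.0 and 45.2 in early pool 2. It stood at 21.0 and 51.5 CPM in late pool 1 and at 21.9 and 28.6 in late pool 2. It too was lower contralaterally in 4 of 4 pools (-0.85, SE 0.158, edgeR adjusted p = 0.00233). Single cells weighed heavily on the ipsilateral side: 1 cell gave 50 of 96 UMIs in early pool 1 (52.1%) and another 37 of 86 in late pool 1 (43.0%). In cells with at least 3 Rorb UMIs the difference was -0.17 (edgeR adjusted p = 0.994), and without late pool 1 it was -0.67 (edgeR adjusted p = 0.252).

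No other activity gene was called. Fos stood at 210 and 280 CPM in early pool 1, 235 and 274 in early pool 2, 294 and 266 in late pool 1 and 191 and 159 in late pool 2, lower contralaterally in the early pools and higher in the late ones (-0.07, SE 0.0819). Arc (0.01), Egr1 (-0.12), Nr4a1 (-0.06), Bdnf (0.00) and Homer1 (-0.05) were not called, with edgeR adjusted p of 0.986 to 1. Of 19 immediate early genes, 2 were called, and 14 in all had negative and 5 positive differences (median -0.07), against 5102 negative and 5272 positive of all genes (median 0.00). Among layer genes, Rspo1 (0.29, edgeR adjusted p = 0.887) and Etv1 (-0.63, edgeR adjusted p = 0.526; called in cells with at least 3 Rorb UMIs, -1.03) were not called, and the list divided into 11 positive and 9 negative.

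The called glial genes differed in how many pools shared their direction. Ndrg2, a gene of astrocytes, stood at 5.60 and 21.9 CPM, contralateral and ipsilateral, in early pool 1, 8.38 and 24.9 in early pool 2, 15.01 and 22.15 in late pool 1 and 3.91 and 10.1 in late pool 2, lower contralaterally in 4 of 4 (-1.22, edgeR adjusted p = 0.0304). Mt1, a metallothionein, was also lower in 4 of 4, at 23.01 and 78.13, 16.8 and 42.1, 116 and 136, and 13.3 and 13.8 CPM in the same order (-0.72, edgeR adjusted p = 0.0341). Gpr37l1, an orphan receptor of astrocytes, stood at 4.98 and 27.8 CPM, contralateral and ipsilateral, in early pool 1, 5.87 and 29.6 in early pool 2, and 13.8 and 27.5 in late pool 1, but at 3.13 and 1.84 in late pool 2 (-1.58, edgeR adjusted p = 0.00135). Hbb-bs stood at 58.9 against 2046 CPM in late pool 1 and 217 against 908 in late pool 2, and at most 35.8 CPM in every early library. Leaving out the non-neuronal cells kept 7 of the 12 calls, Npas4 (-0.34, edgeR adjusted p = 0.0360) and Nr4a2 (-0.84, edgeR adjusted p = 0.00324) among them, and turned Hbb-bs to 0.04. DESeq2 called 0 genes, and the model without the pool block called 3.

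**Figure D5:**
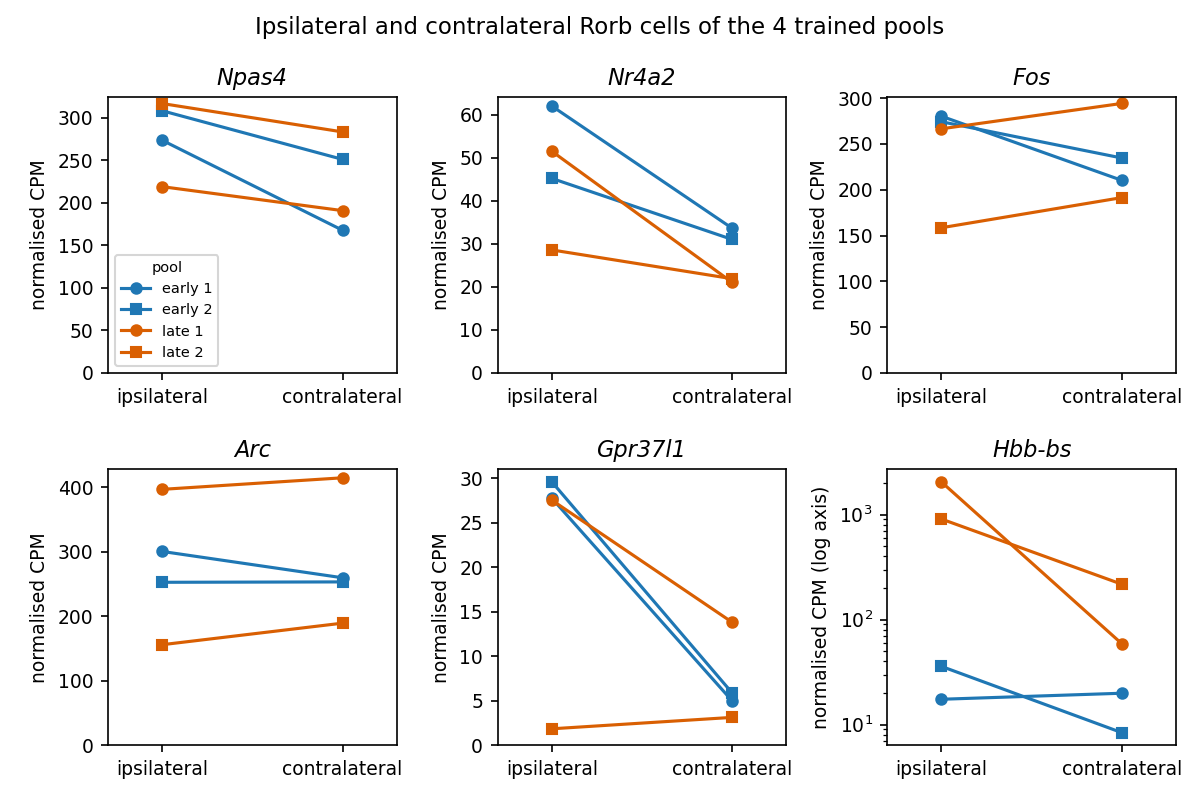
Normalised CPM of 6 genes in ipsilateral and contralateral Rorb cells, with a line for each of the 4 trained pools (log axis for Hbb-bs). All 4 lines of Npas4 and Nr4a2 descend to the contralateral side, while those of Fos and Arc go both ways.

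Whether the hemisphere or stage difference was that of other glutamatergic cells was tested by a class term. Of 14320 genes, 17 differed between classes in their hemisphere difference (0.119%), 0 of them more positive in Rorb cells, and 4 were called with non-neuronal cells left out. Npas4 (-0.33, SE 0.0802) and Nr4a2 (-0.66, SE 0.161) each reached an edgeR adjusted p of 0.0974 and were not called. Of 20 immediate early genes, 17 had a negative and 3 a positive hemisphere class term (median -0.12, against 0.01 over all genes), 0 were called and 6 had an unadjusted p under 0.05, as did 4.53% of all genes. For early against control 33 of 16924 genes were called (0.195%; 4.29% unadjusted), of which 1 was more positive in Rorb cells (0.00591%) and 32 more negative (0.189%). For late against control the class term called 29 (0.171%; 4.48% unadjusted), of which 3 were more positive (0.0177%) and 26 more negative (0.154%). With the non-neuronal cells left out the counts were 4 and 8. The 3 more positive in the late comparison were Cpne5 (0.54), Rrad (2.91) and Tmem114 (2.94), and Pcdh17, a protocadherin, was more negative in Rorb cells (-0.63, SE 0.131, edgeR adjusted p = 0.00226). Arc had a class term of 0.29 in the early comparison (edgeR adjusted p = 0.836).

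The reporter was read through wpre, the element behind tdTomato in the Ai9 transcript, because tdTomato itself was found in 14 Rorb cells. At least 1 wpre UMI was found in 494 Rorb cells (20.1%): 18.8% and 22.7% in the control pools, 29.3% and 12.3% in the early pools and 24.9% and 11.8% in the late pools. The controls lay between the trained pools. Means were 20.7 ± 2.73%, 20.8 ± 12.1% and 18.3 ± 9.28% (SD, n = 2), with exact two-sided permutation p of 1 for early against control, 1 for late against control and 0.667 for late against early. The contralateral side exceeded the ipsilateral by 1.13 points (exact p = 0.500). Positive cells were deeper (median 7782.5 against 6170.5 UMIs). Thinned to 2000 UMIs, wpre-positive Rorb cells made up 10.5% and 7.94% in the control, 10.9% and 7.33% in the early and 11.8% and 5.03% in the late pools. Microglia-gated cells, which should lack the label, gave 9.09% and 6.31%, 6.88% and 5.57%, and 8.27% and 6.01%. The Rorb value was the higher in 5 of 6 pools and the lower in late pool 2.

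Cells with and without wpre were compared within 6 pools, and 17 of 10268 genes were called (0.166%). In positive cells 15 were higher (0.146%) and 2 lower (0.0195%), and 531 genes (5.17%) had an unadjusted p under 0.05. Pcp4, a calmodulin-binding peptide on chromosome 16 (96467606 to 96525793, plus strand), stood at 849 against 672 and 369 against 352 CPM in the controls, 536 against 400 and 546 against 381 in the early pools, and 1013 against 735 and 578 against 433 in the late pools. It was higher in positive cells in 6 of 6 pools (0.36, SE 0.0570, edgeR adjusted p = 0.000304), although the ranges overlapped, and it was the 1 gene called by DESeq2. Gria3 (0.55, edgeR adjusted p = 0.00850) and Etv1 (0.82, edgeR adjusted p = 0.0163) were higher as well, each in 5 of 6 pools. Gria3 was called in 9 and Etv1 in 5 of 13 alternatives, and neither was called without early pool 1 (0.31 and 0.60, edgeR adjusted p = 0.997 and 0.582) or without control pool 2. Pcp4 was called in 11 of 13. With doublets removed 4 of the 17 calls were kept, and without the pool block 0. By the CPM of the profile, all 3 genes stood lower in Rorb cells than in the other glutamatergic cells in 6 of 6 pools. The medians for Pcp4 were 448 against 2032 CPM.

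Most other genes higher in wpre-positive cells were astrocyte genes: Apoe (1.15), Aldoc (0.79), Sox9 (1.28), Bcan (1.10), Mfge8 (1.16), Glul (0.61), Ndrg2 (0.99), F3 (1.16) and Mt1 (0.66), with Selenop (0.70) and Timp2 (0.52). Cnp (-1.60), a gene of oligodendrocytes, was lower, and it stood at 48.0 CPM in negative cells of control pool 2 and at most 11.1 CPM in every other value. Without control pool 2 only Pcp4 was called. Of 19 immediate early genes 0 were called, 16 had positive and 3 negative differences (median 0.10), and 5 had an unadjusted p under 0.05, led by Fosb (0.35, edgeR adjusted p = 0.265) and Nr4a2 (0.52, edgeR adjusted p = 0.466). Nr4a2 was called without late pool 1 (0.79, edgeR adjusted p = 0.00404) and stood at -0.09 at 2 wpre UMIs. Fos stood at 0.06, Arc at 0.05 and Npas4 at 0.04 (edgeR adjusted p = 1 for each). Scnn1a (-0.82), Rspo1 (-0.25) and Rora (-0.18) were negative and not called.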

How the data were processed

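The authors deposited 10x matrices of raw UMI counts, whole numbers for each gene in each barcode. Reads were counted with Cell Ranger (3.1.0) against GRCm38 per the submitters' processing notes, whereas the file headers name software version 3.0.2. The annotation and the kit version (v2 or v3) of each library were not given in the sources used here. Of 54235 features, 54165 matched GENCODE M21 by gene ID, from which positions were taken. The cells and gene lists were chosen with earlier results of these data known.

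UMIs of Rorb cells were summed by pool (stages, 6 pools) or by library (hemispheres, 4 trained pools), or by pool and wpre status with at least 20 cells. Sums were tested with edgeR 4.0.16 (TMM, filterByExpr, quasi-likelihood; R 4.3.3) with stage and kit class, or with the pool as a block, at a Benjamini-Hochberg adjusted p under 0.05. These fits left 2, 3 and 5 residual degrees of freedom. The 9 genes of the rule were left out before adjustment. Replicate numbers follow accession order and pair nothing, whereas hemispheres of a pool come from the same mice. The scripts were tested on simulated counts with known changes. Shares were compared by exact permutation with Wilson 95% intervals behind them, which cover counting error only.

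Named genes were up to 12 called genes with all pools on 1 side, up to 8 uncalled genes of the smallest p (20 CPM or more) where fewer were called, fixed activity, layer and reporter genes, short lists whole, the 3 smallest-p members of longer lists, and the 15 highest and 10 lowest genes of the profile. Called genes whose pools lay on both sides (some glial, hemoglobin and wpre-associated genes), other members quoted from lists and all genes of class terms were named after their values were seen. A few genes that enter the counts are not reported here by name. Alternatives were RLE factors, no filter, DESeq2 1.42.0, no kit covariate, no block, at least 3 Rorb or 2 wpre UMIs, thinning, doublets removed (scanpy's Scrublet, 0.8% per 1000 barcodes), each pool left out, and non-neuronal cells removed.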

Additional observations from a re-analysis of the deposited data

Results flagged for a closer look

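Within 4 contralateral or 4 ipsilateral libraries, 4 of 26 sets of values (cell shares and called genes) had 1 library far from the other 3. The cut-off used (0.829) gives about 1 in 20 for independent, unselected values of like libraries. Here the genes were chosen as called in the same libraries, and the libraries mixed stages and kit classes. That rate therefore cannot be set beside the count. The gap to the nearest library, as a share of the range, was 0.926 for Gpr37l1 (ipsilateral; late pool 2 low), 0.914 for Ccl3 (contralateral; late pool 1 high), 0.905 for Mt1 (contralateral; late pool 1 high) and 0.877 for Hba-a2 (contralateral; late pool 2 high). All 4 are genes of glia, microglia or red blood cells, and their part in the hemisphere calls was not tested.

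The hemisphere difference of 17 genes, the early difference of 33 and the late difference of 29 differed between Rorb cells and other glutamatergic cells by edgeR's class term. For the hemispheres the log2 terms were -3.96 for Hbb-bs, -4.50 for Hba-a2, -4.09 for Hba-a1, -1.05 for Ccl3, -1.80 for Gpr37l1, -1.49 for Gnb4, -1.24 for Ndrg2 and -0.72 for Mt1. For early against control they were -7.23 for Hbb-bs, -6.71 for Hba-a1, -7.33 for Hba-a2 and -7.97 for Hbb-bt. In the control and late pools the leading cell gave 40.1 to 92.7% of Hbb-bs UMIs.

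Hba-a2 differed in sign between the stages, but was nearly level in the early pools. Contralateral minus ipsilateral was 1.13 and 2.63 CPM in the early pools and -796 and -111 CPM in the late pools. The mean of the early exceeded that of the late pools by 455 CPM, a difference that was not tested. Hba-a1 (5.456 and -6.595 CPM) and Hbb-bs (2.47 and -27.45 CPM) had early pools on both sides and were not flagged.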

How the results depend on the processing

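Counts of called genes depended on which cells and pools entered. With non-neuronal cells left out (chosen after seeing the data), the counts were 0 for early against control, 0 for late against early, 7 for the hemispheres, and 4, 4 and 8 for the hemisphere, early and late class terms. Without the filter on low counts they were 44 for early against control, 62 for late against control, 31 for late against early, 26 for the hemispheres and 41 for wpre. DESeq2 called 0 for the hemispheres and 1 for wpre. In the paired comparisons, the models without the block called 3 and 0. Without the kit covariate 2 genes each remained for early against control and late against early. In cells with at least 3 Rorb UMIs the counts were 7 for late against control, 0 for late against early and 4 for the hemispheres. With at least 2 wpre UMIs the wpre count was 10 and with doublets removed 4.

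Leaving out 1 pool gave 5 to 31 calls for early against control, 1 to 99 for late against control, 5 to 35 for late against early, 7 to 19 for the hemispheres, 1 to 23 for wpre, 9 to 16 for the hemisphere, 9 to 42 for the early and 12 to 45 for the late class term. The late against control count was 99 without late pool 1, 96 without control pool 1, 4 without control pool 2 and 3 without late pool 2. The early against control count was 24 and 31 without control pools 1 and 2, 12 without early pool 1, and 25 and 29 without late pools 1 and 2. Late against early gave 25 and 29 without late pools 1 and 2, 22 and 35 without control pools 1 and 2, and 7 without early pool 1. The hemisphere count was 19 without early pool 1 and 7 without early pool 2, and the wpre count 1 without control pool 2. The class terms gave 9 without late pool 1 (hemisphere), 19 without early pool 1 and 9 without control pool 2 (early), and 45 and 12 without late pools 1 and 2 and 13 without control pool 2 (late). The cause was not tested.

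With 1 pool left out, the Rorb share differed by -3.94 to -0.29 points for early against control, -3.73 to -0.09 for late against control, -1.62 to 2.03 for late against early and 0.22 to 2.33 for the hemispheres. Early minus control was -0.26 after thinning. Late minus early was -1.24 after thinning and -1.51 at 3 Rorb UMIs. The wpre share differed by -8.48 to 8.56, -8.97 to 4.15, -11.0 to 6.07 and 0.14 to 2.50 points in the same order. Early minus control was -0.109 after thinning and -0.35 at 2 wpre UMIs, and the hemisphere difference -0.255 after thinning.

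Called genes turned sign in 6 cases among those named: with non-neuronal cells left out, Hba-a1 in early against control (0.16), and Hbb-bs (0.0383) and Hba-a1 (0.32) between hemispheres; at 3 Rorb UMIs, Synpr between hemispheres (0.0343); and at 2 wpre UMIs, Bcan (-0.053) and F3 (-1.18). Of 50 uncalled results for single genes of the stage, hemisphere and wpre comparisons, 14 turned sign in at least 1 alternative (29 cases in all), and edgeR called the gene in 30 cases (DESeq2 in 0). Fos, Arc and Egr1 in late against control were among those that turned.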

Other observations

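Ribosomal protein genes, which the comparisons above do not describe, were mostly positive on the contralateral side: 73 of 82 had positive log2 differences between hemispheres (median 0.06, against 0.00 over all genes) and 0 were called. In early against control pools 69 of 83 were positive (median 0.15) and in late against control 71 of 83 (median 0.13), with 0 called in either. Set against the other glutamatergic cells, the stage class terms were mostly negative, for 71 of 83 in early (median -0.10) and 72 of 83 in late (median -0.08). The hemisphere class term was positive for 77 of 83 (median 0.05). Ppif, the mitochondrial cyclophilin, was not called between hemispheres. It stood at 26.8 against 8.39 CPM, contralateral and ipsilateral, in early pool 1, 16.8 against 9.35 in early pool 2, 25.2 against 18.0 in late pool 1 and 18.0 against 7.37 in late pool 2. It was higher contralaterally in 4 of 4 pools (1.00, SE 0.238, edgeR adjusted p = 0.0675) and was singled out after its values were seen. Without late pool 1 it was called (1.37, edgeR adjusted p = 0.0272).

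For Synpr, a synaptic vesicle protein called between hemispheres, 1 cell gave 80 of its 126 UMIs in the ipsilateral library of early pool 1. For Gnb4, 1 cell gave 39 of 50 UMIs in that library and 1 gave 21 of 27 in the ipsilateral library of late pool 1. Synpr was also lower contralaterally in early pool 2 (25.1 against 34.3 CPM) and late pool 1 (19.2 against 34.7), but not in late pool 2 (14.1 against 13.8). The part of these cells in the calls was not tested.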
